A study of Homo sapiens with 18 samples.

Results

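MYC peaks that share no base with any peak of KDM2B, H3K4me3 or H3K27ac were examined in MDA-MB-231, a cell line grown from a triple-negative breast tumour and profiled by chromatin immunoprecipitation sequencing (ChIP-seq). They were chosen by the authors' peak calls of those 4 targets, and there were 5528 such peaks among the 49142 MYC peaks on chromosomes 1 to 22, or 11.2%, and the other 43614 MYC peaks touched at least 1 of the 3 lists. MYC, KDM2B, H3K4me3, H3K27me3 and H2AK119ub were profiled in cells labelled only with the name of the line. H3K27ac was profiled in cells carrying an empty vector, so that mark was read in another stock of the line. The 18 libraries formed 9 groups of 2, inputs included. Each of 6 targets had 1 peak list, not resolved by library, so the values below carry no replicate error, and libraries of ATF4 were not analysed here. The lack of the 3 other signals is how the peaks were defined and not a result. All 8 markers of mesenchymal, basal-type breast cells that were examined, among them VIM, CD44 and AXL, had H3K4me3 and H3K27ac at an end of the gene. Both were also at 4 of 8 luminal or epithelial markers (GATA3, ERBB3, FOXA1 and EPCAM), and at none of 3 blood markers. Of all protein-coding genes 70.1% had H3K4me3 at an end, and the share with both marks was not computed.

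MYC is a basic helix-loop-helix transcription factor that binds DNA as a dimer with MAX, with a preference for the E-box CACGTG. In tumour cells most of its binding is known to lie at promoters and enhancers that are already open, which carry H3K4me3 (active promoters) or H3K27ac (active promoters and enhancers). KDM2B has a zinc finger for unmethylated CpG and brings a variant PRC1 Polycomb complex to such DNA, where the complex places H2AK119ub, a ubiquitin on histone H2A. H3K27me3 is the mark of the other main Polycomb complex, PRC2, and lies over repressed genes.

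The sequences below are RefSeq promoter windows of build GRCh38.p14, reaching from 250 bases before to 50 after an annotated start, that such a MYC peak overlapped. They are shown because few of the peaks lay at an annotated start, and because those starts differ widely in CpG content. CDH23, LRRC71 and SH3GLB2 had the 3 highest MYC folds among protein-coding starts, RBPJL the highest at a protein-coding start where the MYC peak carried both Polycomb marks, and KLHL30 and LOC124903366 the highest among protein-coding and lncRNA windows with a CACGTG. Each reads 5′ to 3′ on the strand of the gene, with every CG dinucleotide and every CACGTG in capitals.
CDH23: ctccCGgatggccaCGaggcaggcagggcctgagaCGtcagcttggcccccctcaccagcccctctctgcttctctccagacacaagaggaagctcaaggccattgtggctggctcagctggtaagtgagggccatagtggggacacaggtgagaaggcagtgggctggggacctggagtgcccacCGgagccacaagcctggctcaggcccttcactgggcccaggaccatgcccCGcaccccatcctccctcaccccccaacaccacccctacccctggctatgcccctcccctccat
LRRC71: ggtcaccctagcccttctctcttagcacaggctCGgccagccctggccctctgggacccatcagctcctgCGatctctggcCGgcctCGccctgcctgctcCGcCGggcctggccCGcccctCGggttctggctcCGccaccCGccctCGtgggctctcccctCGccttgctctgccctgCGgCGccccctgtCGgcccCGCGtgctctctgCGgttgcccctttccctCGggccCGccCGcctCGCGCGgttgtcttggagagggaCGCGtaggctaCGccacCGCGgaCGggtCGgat
SH3GLB2: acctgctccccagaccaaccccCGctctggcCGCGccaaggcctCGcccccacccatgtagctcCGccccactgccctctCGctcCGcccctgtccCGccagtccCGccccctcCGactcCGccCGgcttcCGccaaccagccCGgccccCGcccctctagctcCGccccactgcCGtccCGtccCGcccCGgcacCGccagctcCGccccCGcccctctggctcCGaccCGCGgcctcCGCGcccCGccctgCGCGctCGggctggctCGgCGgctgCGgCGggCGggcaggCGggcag
RBPJL: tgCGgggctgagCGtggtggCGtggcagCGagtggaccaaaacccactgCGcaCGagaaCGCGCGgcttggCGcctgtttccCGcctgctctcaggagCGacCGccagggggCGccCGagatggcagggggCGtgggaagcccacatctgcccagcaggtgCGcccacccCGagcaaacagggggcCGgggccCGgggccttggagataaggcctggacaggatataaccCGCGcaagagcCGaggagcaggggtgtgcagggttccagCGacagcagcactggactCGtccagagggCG
KLHL30: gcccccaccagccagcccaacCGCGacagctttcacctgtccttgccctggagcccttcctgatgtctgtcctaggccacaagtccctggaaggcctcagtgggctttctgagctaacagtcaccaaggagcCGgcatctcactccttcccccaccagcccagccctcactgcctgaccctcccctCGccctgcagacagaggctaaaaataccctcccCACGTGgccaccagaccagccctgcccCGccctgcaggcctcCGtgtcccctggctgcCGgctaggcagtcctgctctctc
LOC124903366: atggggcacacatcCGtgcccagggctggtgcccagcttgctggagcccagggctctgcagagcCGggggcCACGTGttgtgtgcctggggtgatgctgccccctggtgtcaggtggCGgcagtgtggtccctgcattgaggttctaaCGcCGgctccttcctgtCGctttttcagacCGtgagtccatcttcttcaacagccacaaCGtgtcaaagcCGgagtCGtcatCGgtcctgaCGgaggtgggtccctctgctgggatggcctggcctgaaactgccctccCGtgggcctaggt
CDH23 (chr10:71811633-71811932, plus strand), the cadherin of hair-cell tip links, held 5 CG and no CACGTG. The MYC peak there lay inside a gene and not within 1 kb of any protein-coding gene end, so this start is internal to CDH23. LRRC71 (chr1:156920382-156920681, plus strand) held 31 CG. SH3GLB2 (chr9:129028282-129028581, minus strand), the gene of endophilin B2, held 38 CG, the highest count of the 6 shown. Its MYC peak covered 92 bases of the window, with the summit outside it, and lay 172 bp from a KDM2B, H3K4me3 or H3K27ac peak. At an end SH3GLB2 also had H3K4me3 of fold 48.2, H3K27ac of 10.9, KDM2B of 3.99 and another MYC peak of 11.3. RBPJL (chr20:45306590-45306889, plus strand), a paralogue of the Notch effector RBPJ, held 26 CG and no CACGTG. KLHL30 (chr2:238138418-238138717, plus strand) held 8 CG and a CACGTG starting at base 220 of the window. LOC124903366 (chr14:92951890-92952189, minus strand) held 14 CG and a CACGTG starting at base 72. The MYC fold was 9.28 at CDH23, 5.09 at LRRC71, 4.60 at SH3GLB2, 2.94 at RBPJL, 2.55 at KLHL30 and 6.42 at LOC124903366. Fold here and below is the authors' enrichment over background at the summit of the MYC peak. The 3 protein-coding starts of highest fold thus included a CpG-poor one internal to its gene and a pair of CpG-rich ones. None of the 3 held the E-box.

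Few of the peaks lay at annotated starts at all. Only 69 of them overlapped a window, at 76 windows (46 protein-coding and 30 of lncRNAs), out of 33558 windows in the table, which holds none for chromosome 8. No such window was also overlapped by one of the other MYC peaks. These windows held a median of 10 CG, against 27 in windows overlapped by other MYC peaks, 4 in windows with no MYC peak and 14 over all windows. Of the 76 windows 16 held 20 or more CG and 37 held fewer than 10. CACGTG, which reads the same on both strands, was in 9 of 76 windows (11.8%, 95% Wilson interval 6.36 to 21.0), in 9.91% of windows overlapped by other MYC peaks (9.45 to 10.4), in 4.72% of windows with no MYC peak and in 7.15% of all windows. With so few windows the interval for the E-box spanned the value of the other MYC peaks and that of all windows. The related hexamer CACGCG, on either strand, was in 8 of 76 windows (10.5%, 5.43 to 19.4), in 19.2% of those overlapped by other MYC peaks and in 11.4% of all. The rule left out peaks that touch H3K4me3 or KDM2B, which binds unmethylated CpG. The choice of the peaks therefore bears on the CG counts and on both hexamers, and these values are given as a description. CACGTG windows of protein-coding genes were those of KLHL30 and PDCD1, the immune checkpoint receptor, which had a fold of 2.13. Of the 76 windows, 33 were at peaks with H2AK119ub alone, 24 with both Polycomb marks, 4 with H3K27me3 alone and 15 with neither.

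The MYC peaks outside active marks were weak and narrow. Their median fold was 2.41 (middle 50% of peaks 2.17 to 2.75), against 3.79 (2.72 to 7.93) for the other MYC peaks. Their median width was 272 bp (224 to 356), against 625.5 bp (322 to 1393). A fold under 3 was found at 85.3% of them and 35.0% of the others, and a fold of 5 or more at 117 of them (2.12%), against 16647 of the others (38.2%). The median −log10 q was 3.33 against 10.6, and 24.7% of them had a q under 1e-5, against 70.5% of the others. Most therefore stood low in the list, with a small tail of strong peaks. When all MYC peaks were split by fold into 10 equal classes, they made up 34.8% of the lowest class, 26.8% of the second, 7.94% of the fifth and 0.0203% of the highest. By width they made up 30.8% of the narrowest class and 0.0407% of the widest. A narrow peak has less length with which to touch another list, so the choice of the peaks bears on both patterns, and they are given as a description. At the edge of the rule the peaks looked alike: 126 peaks that lay less than 100 bp from an active peak had a median fold of 2.51 and a width of 283 bp, and 279 MYC peaks that shared 1 to 100 bp with one had 2.48 and 273 bp.

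**Figure D1:**
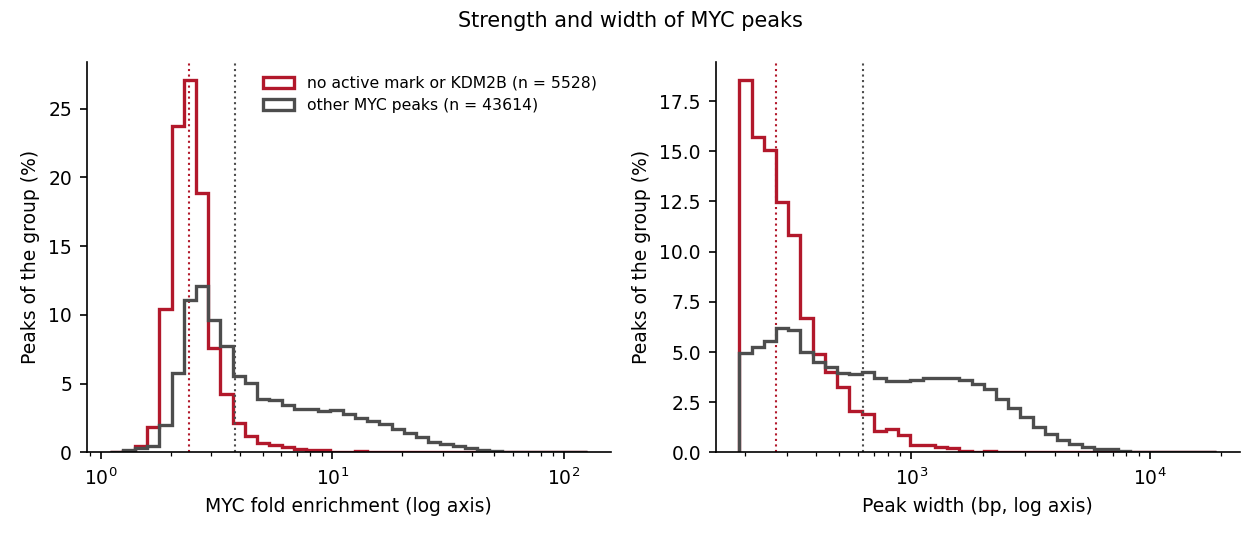
Distribution of the authors' MYC fold enrichment (left) and of peak width in bp (right), each on a log axis, for the 5528 MYC peaks without active mark or KDM2B (red) and the 43614 other MYC peaks (grey), as a percentage of each group. Dotted lines are medians, 2.41 and 3.79 for fold and 272 and 625.5 bp for width, and the red curves lack the long right tail of the grey ones.

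Although no peak touched an active mark, many lay near one. The median gap to the nearest KDM2B, H3K4me3 or H3K27ac peak was 5902 bp, with the middle 50% between 1388 and 19502.5 bp. By mark, the median gap was 9808 bp to H3K4me3, 13421.5 bp to H3K27ac and 33926.5 bp to KDM2B. The gap was under 1 kb for 1150 peaks (20.8%), 1 to 10 kb for 2221 (40.2%), 10 to 100 kb for 1988 (36.0%) and over 100 kb for 169 (3.06%). Most of the peaks were therefore within 10 kb of a peak of at least 1 of these 3 lists. The MYC fold hardly moved along this scale, with medians of 2.47, 2.39, 2.41 and 2.43 from the nearest to the farthest class. The 3 strongest peaks over 100 kb from any active peak all lay inside genes and touched no peak of either Polycomb mark. They were in WDPCP, a gene of cilium formation, with a fold of 6.21 (chromosome 2, 63424327 to 63424982 in hg38), in RALGAPA2, a subunit of the Ral GTPase-activating complex, with 4.60 (chromosome 20, 20457604 to 20457991), and in the receptor kinase gene ALK with 4.41 (chromosome 2, 29747819 to 29748165). With peaks of a mark joined across gaps of 3 kb, the peak in ALK lay inside an H3K27me3 domain of 392150 bp and an H2AK119ub domain of 14306 bp.

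The Polycomb marks, whose lists the rule did not use, were frequent at these peaks. H3K27ac, which the rule did use, sits on the same histone residue as H3K27me3. The choice of the peaks therefore bears on the H3K27me3 values here and below, and they are given as a description. H2AK119ub overlapped 3099 of the 5528 (56.1%, 95% Wilson interval 54.7 to 57.4), against 29.1% of the other MYC peaks (28.7 to 29.5) and 32.1% of all MYC peaks. H3K27me3 overlapped 1728 (31.3%, 30.1 to 32.5), against 4.18% of the others (1825 peaks) and 7.23% of all. Both marks were at 1498 (27.1%), against 3.69% of the others and 6.32% of all MYC peaks. H2AK119ub alone was at 1601 of the peaks outside active marks (29.0%) and 25.4% of the others. H3K27me3 alone was at 230 of them (4.16%) and 0.493% of the others, and neither mark at 2199 of them (39.8%) and 70.4% of the others. The groups thus stood apart mostly in sites with H3K27me3 and less in sites with H2AK119ub alone. Sites with H3K27me3 also carried H2AK119ub in 86.7% of cases, near the 88.2% among the other MYC peaks and the 87.5% among all. The intervals cover counting error within these lists only, and no test over libraries was possible. The order held on each chromosome: the share of either mark was higher than at the other MYC peaks on 22 of 22 chromosomes.

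Over the 6 lowest of the 10 classes of MYC fold, both marks became less frequent toward higher fold in both groups of peaks. In the lowest class of MYC fold (1.12 to 2.22) H2AK119ub was at 65.2% of the peaks outside active marks and 52.6% of the other MYC peaks, and H3K27me3 at 37.4% and 9.18%. In the fifth class (2.99 to 3.45) H2AK119ub was at 42.8% and 23.8%, and H3K27me3 at 19.5% and 4.31%. In the eighth class (5.76 to 8.73), which held 52 of the peaks outside active marks, H2AK119ub was at 48.1% and 27.8%, and H3K27me3 at 11.5% and 3.50%. The gap between the groups therefore remained among peaks of like strength, and for H2AK119ub it was narrowest in the lowest of the first 8 classes. With the other MYC peaks weighted to the same mix of fold and width classes, H2AK119ub was at 56.1% against 34.1%, H3K27me3 at 31.3% against 6.18% and both at 27.1% against 5.46%. Weighted by fold alone, the other MYC peaks had H2AK119ub at 38.3%, H3K27me3 at 6.56% and both at 5.90%. These H2AK119ub shares include peaks with both marks, in the lowest class 33.5% of the peaks outside active marks and 8.52% of the others. In that class and after weighting by fold, H2AK119ub alone was therefore less frequent at the peaks outside active marks. After weighting by fold and width it was at near the same share in both groups.

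**Figure D2:**
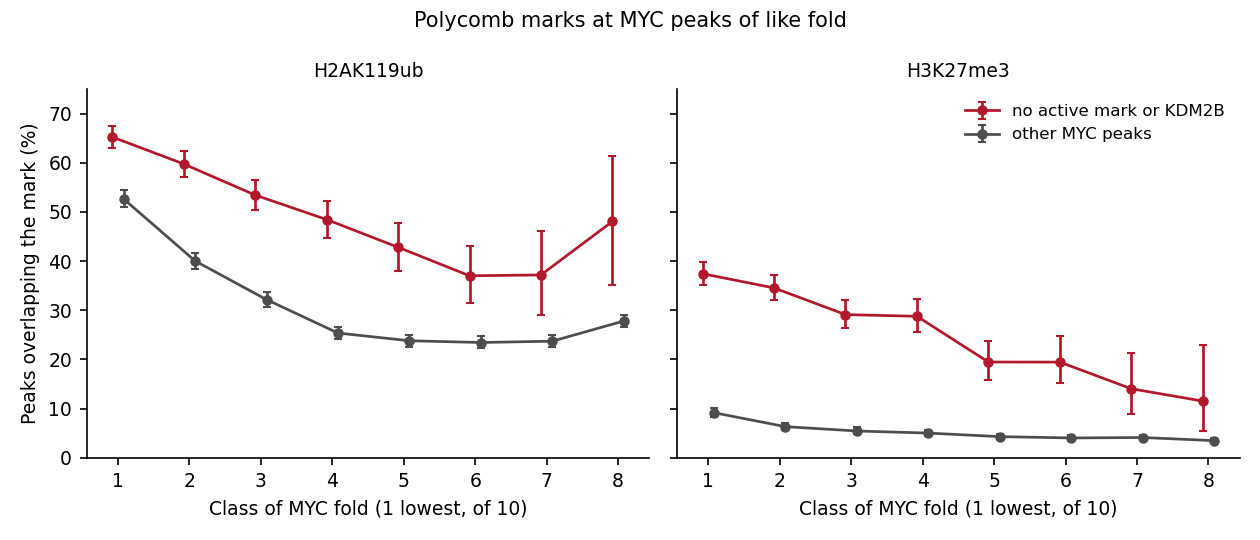
Share of MYC peaks that overlapped H2AK119ub (left) or H3K27me3 (right), in percent, by class of MYC fold, for peaks without active mark or KDM2B (red) and other MYC peaks (grey), with 95% Wilson intervals. The 10 classes are of equal size over all MYC peaks ordered by fold, and the 2 highest are not drawn since they held only 17 and 1 of the peaks outside active marks. Red lies above grey in each class drawn, and both fall as fold rises from class 1 to class 6.

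The length that the marks cover gives another base line. Outside active peaks, H2AK119ub peaks covered 143 Mb, or 5.32% of the 2684 Mb of chromosomes 1 to 22 that lie between the outermost gene records and outside active peaks, and H3K27me3 peaks covered 348 Mb, or 13.0%. Counted by single bases, the MYC summit lay inside an H2AK119ub peak at 2764 of the 5528 peaks (50.0%, 95% Wilson interval 48.7 to 51.3) and inside an H3K27me3 peak at 1549 (28.0%, 26.9 to 29.2). Both shares were above the share of length. The span includes stretches that reads cannot be placed in, so the shares of the length that reads can be placed in are higher than those printed, by an amount not computed.

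The signal of the marks was slightly higher at these peaks than at other MYC peaks that touched the same mark. Where a MYC peak overlapped several peaks of a mark, the highest fold was taken, and the wider other MYC peaks can overlap more of them. The median of the authors' H2AK119ub fold was 2.98 at the 3099 peaks and 2.85 at 12687 other MYC peaks. For H3K27me3 it was 3.24 at the 1728 peaks and 2.74 at 1825 others. With peaks of each mark joined across gaps of 3 kb, 46.0% of the peaks outside active marks lay in an H2AK119ub domain of at least 10 kb, against 20.5% of the other MYC peaks, and 30.2% in such an H3K27me3 domain, against 4.10%. Among peaks in a domain of any size the median domain was 29247.5 bp against 17593 bp for H2AK119ub, and 58693 bp against 44715 bp for H3K27me3.

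The frequency of H3K27me3 also grew with the gap to the nearest KDM2B, H3K4me3 or H3K27ac peak. It overlapped 15.6% of the peaks with a gap under 1 kb (95% Wilson interval 13.6 to 17.8), 28.9% at 1 to 10 kb (27.1 to 30.8), 41.2% at 10 to 100 kb (39.1 to 43.4) and 52.1% beyond 100 kb (44.6 to 59.5). H2AK119ub showed no such trend, at 53.4%, 57.8%, 56.6% and 45.0% in the same order. Among the classes of marks, peaks with H2AK119ub alone were nearest to an active peak, with a median gap of 3222 bp. Peaks with neither mark had 5171 bp, those with both 10622.5 bp and those with H3K27me3 alone 16861.5 bp. The median MYC fold was 2.37 with H2AK119ub alone, 2.52 with neither, 2.32 with both and 2.41 with H3K27me3 alone, a narrow range.

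**Figure D3:**
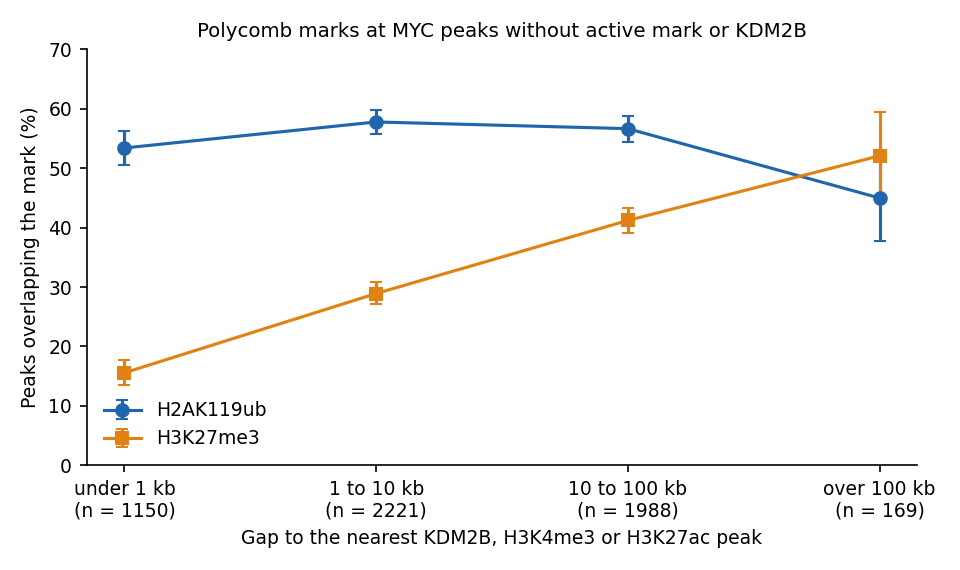
Share of the 5528 MYC peaks without active mark or KDM2B that overlapped H2AK119ub (blue circles) or H3K27me3 (orange squares), in percent with 95% Wilson intervals, by the gap to the nearest KDM2B, H3K4me3 or H3K27ac peak. H3K27me3 goes up over the 4 classes, from 15.6% in the nearest to 52.1% in the farthest, while H2AK119ub stays between 45.0% and 57.8%.

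The peaks lay mostly away from gene ends. Protein-coding gene records had 339 of them within 1 kb of an end (6.13%, 95% Wilson interval 5.53 to 6.80), against 30.4% of the other MYC peaks (29.9 to 30.8) and 27.6% of all MYC peaks. A further 2449 (44.3%) were inside genes and away from their ends, against 37.1% of the others and 37.9% of all, and 2740 (49.6%) were outside genes, against 32.6%. No peaks were set aside for lying near centromeres or in repeated sequence, where reads can be misplaced. How many of those outside genes lie there was not computed. On the 21 chromosomes for which starts were tabulated, 88 of 5277 were within 1 kb of a protein-coding start (1.67%, 1.36 to 2.05), against 26.3% of the others and 23.5% of all. At the opposite end of the gene there were 189 of 5277 (3.58%, 3.11 to 4.12), against 4.87% of the others (4.67 to 5.08). Counting only opposite ends with no start within 1 kb of the peak turned the order, with 179 of 5277 (3.39%, 2.94 to 3.92), against 2.81% of the others (2.65 to 2.97). Of the 11076 MYC peaks near a start, 98.9% touched H3K4me3, 93.0% H3K27ac and 67.8% KDM2B, so the choice of peaks left few there and their low share at starts is a description. The median distance from the MYC summit to the nearest protein-coding start was 38429 bp, against 14110 bp for the other MYC peaks. With other MYC peaks weighted to the same fold and width classes, 11.3% were near a gene end and 46.3% inside genes, so the difference in peaks inside genes was small and of the opposite sign after weighting.

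**Figure D4:**
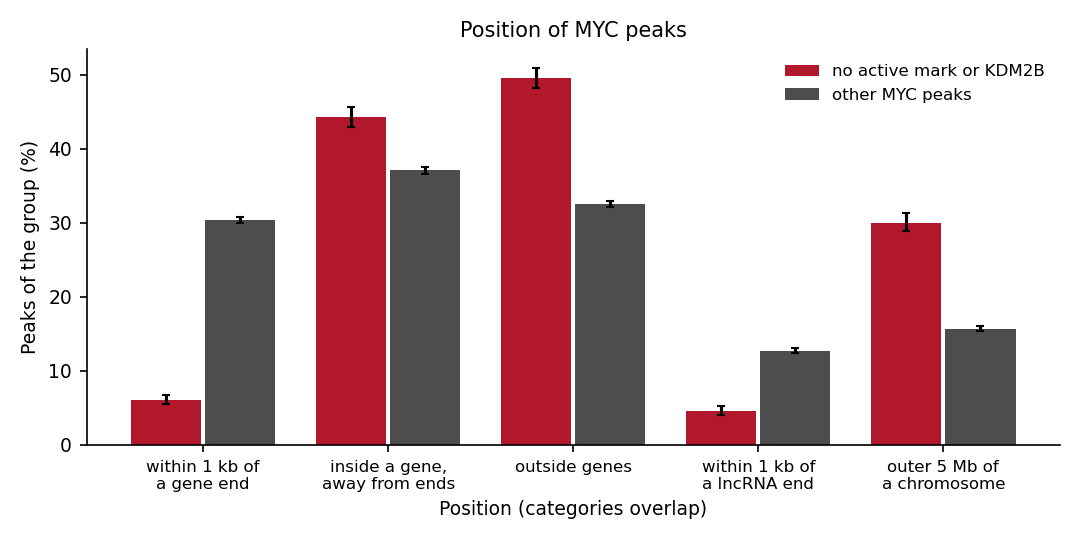
Share of MYC peaks in each position, in percent of the group with 95% Wilson intervals, for the 5528 peaks without active mark or KDM2B (red) and the 43614 other MYC peaks (grey). The first 3 positions refer to protein-coding genes and add up to 100% of each group, and the last 2 overlap with them. Red is lower at gene ends (6.13% and 30.4%) and higher in the outer 5 Mb of chromosomes (30.0% and 15.7%).

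Ends of lncRNA records had 256 of the peaks within 1 kb (4.63%), against 12.7% of the other MYC peaks and 11.8% of all. Pseudogenes, copies of genes that are mostly not expressed, had 136 (2.46%, 95% Wilson interval 2.08 to 2.90), against 1.57% of the others (1.46 to 1.69) and 1.67% of all. Reads can be placed at the wrong one of near-identical copies; the handling of such reads is not given in the sources used. Transfer RNA genes, which RNA polymerase III transcribes, had 7 (0.127%, 0.0614 to 0.261), against 197 of the others (0.452%, 0.393 to 0.519) and 0.415% of all.

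Along chromosomes the peaks were concentrated toward the ends. The outer 5 Mb, measured from the outermost gene record of each chromosome, held 1660 of them (30.0%, 95% Wilson interval 28.8 to 31.3), against 15.7% of the other MYC peaks (15.4 to 16.1) and 17.3% of all. Of all protein-coding genes 13.3% lie there. With other MYC peaks weighted to the same classes of fold and width, the share was 18.8%. Among the peaks outside active marks the concentration was in those with H2AK119ub: 41.2% of the peaks with H2AK119ub alone and 41.3% of those with both marks were in the outer 5 Mb, against 17.0% with H3K27me3 alone and 15.6% with neither. This split was not computed for the other MYC peaks. Without the outer 5 Mb the H2AK119ub share was lower in both groups, 47.1% rather than 56.1% here and 23.8% rather than 29.1% among the others. The 1 Mb bins with most peaks were one near the end of chromosome 20 (63000001 to 64000000) with 43 of its 142 MYC peaks, the first of chromosome 7 (1 to 1000000) with 39 of 133, and a bin of chromosome 8 (143000001 to 144000000) with 37 of 158. H2AK119ub was at 41, 36 and 35 of these, and H3K27me3 at 26, 17 and 18, against 56.1% and 31.3% of the whole set. The shares of the marks at the other MYC peaks of these bins were not computed. Their median MYC folds of 2.20, 2.28 and 2.04 were all below the 2.41 of the whole set, so these dense bins held many weak peaks. Bins with 10 or more peaks numbered 115 and held 1819 of the 5528.

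By chromosome the share of MYC peaks that lay outside active marks ranged between 8.56% on chromosome 13 and 17.1% on chromosome 20 (95% Wilson intervals 6.75 to 10.8 and 15.4 to 18.9). Chromosome 16 had 14.0%, chromosome 7 also 14.0% and chromosome 22 13.6%. Chromosome 20 also had the highest share of both Polycomb marks at these peaks, with H2AK119ub at 71.4% and H3K27me3 at 45.5%. The lowest shares of both were on chromosome 4, with 30.8% and 8.90%. Other MYC peaks had 39.1% and 6.91% on chromosome 20, the latter their highest share of H3K27me3, and 14.4% and 1.63% on chromosome 4. Chromosome 20 thus stood above chromosome 4 in both groups.

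**Figure D5:**
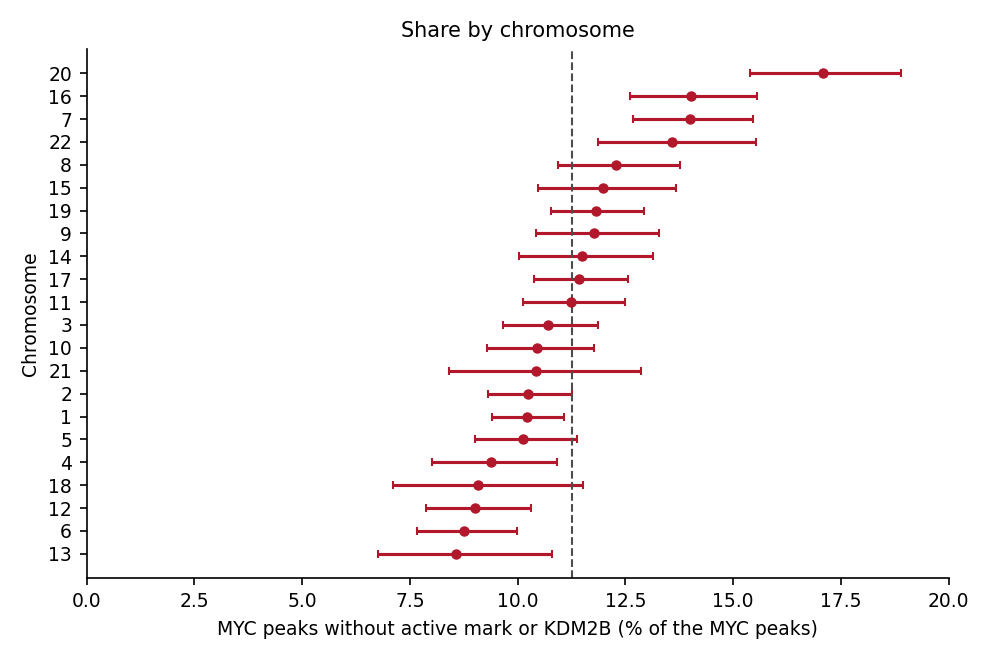
MYC peaks without active mark or KDM2B as a percentage of the MYC peaks of each chromosome, with 95% Wilson intervals, ordered by share. The dashed line is the value over chromosomes 1 to 22, 11.2%, and chromosome 20 (17.1%) stands highest while chromosome 13 (8.56%) is lowest.

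MYC peaks outside active marks also lay farther from other MYC peaks. The median distance to the nearest other MYC summit was 8531 bp, against 2353.5 bp for the other MYC peaks. Another MYC summit lay within 10 kb of 54.2% of them, against 73.3% of the others. A further peak of the same kind lay within 10 kb of 28.7% of them, while 7.96% of the other MYC peaks had one at that distance.

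The 10 strongest peaks had folds between 10.4 and 16.9. The highest, 16.9, was at chromosome 3, 48402395 to 48403731, just past the 3′ end of PLXNB1, a receptor gene for semaphorins, with H2AK119ub of fold 2.77 and the nearest active peak 17836 bp away. The second, of fold 13.7, was at chromosome 17, 21770869 to 21771351, outside genes, with H2AK119ub of 2.42 and H3K27me3 of 1.77, and KCNJ18, a potassium channel gene, was the nearest start at 78675 bp. The third, of fold 13.6, was at chromosome 15, 78978610 to 78979830, inside RASGRF1, an activator of Ras, and over the start of the lncRNA LOC100129540. These 3 all carried H2AK119ub, and their −log10 q values of 233.5, 160.8 and 132.6 were far above the median of 3.33.

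A fold of 13.4 was found at chromosome 1, 153510172 to 153511870, with S100A6, a calcium-binding protein gene, as the nearest start at 24858 bp, and one of 13.0 at chromosome 3, 142278940 to 142280232, with TFDP2, a partner of the E2F factors, at 130488 bp. Neither carried a Polycomb mark. BEAN1 held one of fold 11.9 (chromosome 16, 66478864 to 66480351) with H2AK119ub of 3.01. The peak of fold 11.4 at chromosome 9, 133022155 to 133022465, lay beside the pseudogene EEF1A1P5, a copy of a gene for the translation factor eEF1A1, and only 1056 bp from an active peak. The one of fold 11.1 at chromosome 2, 68361779 to 68362551, was 3055 bp from a start of PLEK, a gene of platelets and leukocytes, and inside or within 1 kb of the lncRNA LOC101927723. The one of fold 10.7 at chromosome 3, 128584367 to 128584982, touched H3K27me3 of 2.83 and no H2AK119ub peak, 91457 bp from a start of GATA2, a transcription factor of blood cells. Joined across 3 kb, the marks there formed an H3K27me3 domain of 30467 bp and an H2AK119ub domain of 62362 bp, and the MYC peak lay in both. The tenth, of fold 10.4 at chromosome 2, 19800836 to 19801637, lay 71 bp from both H3K4me3 and H3K27ac. Of the 10, then, 4 had H2AK119ub alone, 1 H3K27me3 alone, 1 both and 4 neither.

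The widest peak measured 3621 bp and had a fold of 7.33, inside INTS1, a subunit of the Integrator complex (chromosome 7, 1473255 to 1476875), within an H2AK119ub domain of 161431 bp. The second, of 2866 bp and fold 5.28, lay over the upper end of SSTR5, a somatostatin receptor (chromosome 16, 1080440 to 1083305), with H2AK119ub of 4.66 and H3K27me3 of 2.46. The other 3 of the 5 widest measured 2202, 2172 and 2147 bp, with folds of 7.64, 6.42 and 6.62, and all 5 carried H2AK119ub. Among peaks with both Polycomb marks, the second by fold was outside genes at chromosome 11, 115622316 to 115623657, with a fold of 8.44 in an H3K27me3 domain of 532667 bp. The next lay inside ATP2B2, a calcium pump of the plasma membrane (chromosome 3, 10419538 to 10420768), with a fold of 7.38. Among those with H3K27me3 alone, those after the peak near GATA2 had folds of 5.46 (chromosome 12, 116687535 to 116688176) and 4.48 (chromosome 16, 19994667 to 19995304).

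Counted over genes, 347 of 19126 protein-coding genes had such a peak within 1 kb of an end (1.81%), and 1981 had one inside or within 1 kb (10.4%). Of the 347, 181 also had another MYC peak at an end, as did 64.2% of all genes, and 211 had H3K4me3 at an end, against 70.1% of all genes. Among the 347, 299 had H2AK119ub at an end, against 46.6% of all genes, and 156 had H3K27me3 there, against 27.1% of all genes. There were 125 of the 347 with no H3K4me3, H3K27ac or KDM2B peak at either end, as had 28.1% of all genes. After PLXNB1, the highest folds at gene ends were 7.32 at SHANK3, a scaffold of the postsynaptic density, 6.94 at UPF1, the helicase of nonsense-mediated decay, 6.87 in 1 peak beside ATP4B, a subunit of the gastric proton pump, and GRK1, rhodopsin kinase, and 6.58 at ATP9A, a lipid flippase. PLXNB1 also had another MYC peak at an end, of fold 4.99, with H3K4me3 of 33.6. UPF1 and ATP9A also had other MYC peaks at an end, of fold 10.1 and 5.07, and H3K4me3 of 43.4 and 28.4, while SHANK3, ATP4B and GRK1 had no other MYC peak there.

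The gene with most of these peaks was PTPRN2, a receptor-type phosphatase of secretory granules, with 15 over 1048768 bp, the highest at a fold of 2.96. CDH4, IQSEC1 and MEGF6 had 11 each, over 688357, 386215 and 136836 bp. ATP2B2, GSE1 and RBFOX3 had 10 each. These genes were chosen after their counts were seen, and long genes have more room for peaks.

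Gene lists were read against the 1.81% and 10.4% of all genes. Amino acid metabolism is in the title of the study. Of 49 enzymes and carriers of amino acids, 0 had such a peak at an end and 3 had one inside, while 47 had another MYC peak at an end (64.2% of all genes had one). The 3 were SLC6A9, the glycine carrier, with a fold of 3.12, ASS1, argininosuccinate synthase, with 2.84, and AHCY of the methionine cycle with 2.17. None of 20 genes that respond to ATF4 had one at an end or inside, and 19 had another MYC peak at an end. Of 28 genes of ribosome biogenesis and nucleotide synthesis, 0 had one at an end and 2 inside (CTPS1 with 2.68 and BOP1 with 2.00), and 27 had another MYC peak at an end. No gene of these 3 lists had a MYC peak outside active marks at an end. With 1.81% of all genes having one, lists of this size would hold few, so these counts of 0 are not read as a result.

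The other lists held genes of development, of other tissues and of breast cell types. Of 59 developmental transcription factors 2 had such a peak at an end, EMX1 with a fold of 2.999 and TBX3 with 2.41, and 5 at an end or inside, TBX5 with 3.74, PAX5 with 3.27 and PAX3 with 2.38 being the others. Other MYC peaks were at an end of 13 of the 59, H2AK119ub at 51 and H3K27me3 at 40 (46.6% and 27.1% of all genes had these marks at an end). Of 40 neuronal channels and receptors 0 had one at an end and 8 inside, among them the calcium channel subunits CACNA2D3 with 4.54 and CACNA1A with 2.75 and the potassium channel KCNC1 with 3.37. Of 29 germline and cancer-testis genes 3 had one inside, namely PIWIL1 with 2.79, TDRD9 with 2.28 and TEX14 with 2.12. Of 28 blood and immune genes BCL11B had one at an end with a fold of 2.49, and TCF7 with 2.85, IKZF1 with 2.52 and SPI1 with 2.40 had one inside. Of 26 mesenchymal and basal genes SPARC had one with 2.43, and of 25 luminal and epithelial genes GRHL2 with 2.88, CDH1 with 2.53 and SPDEF with 2.10 had one, all inside. These lists are small and gene length was not matched, so the counts describe these genes and no list is called different from the rest.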

How the data were processed

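Samples were put into groups from their titles, which name the target and the cell line, with EV added for cells of the empty vector. The labels give no culture of origin for the libraries. Trim Galore, Bowtie2 2.4.5, SAMtools 1.6, MACS2 2.2.7.1 and build hg38 are listed per the submitters' processing notes. The control, the handling of multiply placed reads and any pooling of libraries are not given in the sources used. Each deposited list gives per peak a score, a fold (the authors' ratio over background), a −log10 q-value and a summit position, with a −log10 p-value that was not used. The highest q in any list was 0.0500. No list gives read counts, so the depth is unknown.

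MYC peaks on chromosomes 1 to 22 were kept where they shared 0 bp with every KDM2B, H3K4me3 and H3K27ac peak; elsewhere an overlap meant at least 1 bp. Gene records (19126 protein-coding) and promoter windows came from RefSeq, GRCh38.p14, the same build with patches; starts on chromosome 8 were not used here. Weighted values average the other MYC peaks over 10 by 10 classes of fold and width in the proportions of the chosen peaks. Wilson intervals (95%) reflect counting only, and with 1 list per target no test was made. The overlap functions were checked on simulated intervals (Python 3.11.15, numpy 2.4.6, pandas 2.3.3, scipy 1.17.1).

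The members, gene lists and named regions were chosen with earlier results of these data known. Named were the 10 peaks of highest fold, the 5 widest, the 5 highest at gene ends, the 3 highest per class of Polycomb mark and beyond 100 kb from active peaks, the 3 densest bins, up to 4 genes per list and the members of counts of 5 or fewer. The planned E-box count around summits was not made, as sequence there was not used here, and promoter windows were searched instead. One gene named by this rule is not reported here.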

Additional observations from a re-analysis of the deposited data

How the results depend on the processing

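Alternatives planned were MYC peaks or active peaks of q under 1e-5, a gap of at least 1 kb, summits in place of whole peaks, other windows and merged marks. Those added after the data were seen were starts only, no outer 5 Mb and no chromosome 20. With MYC peaks of q under 1e-5 the number of peaks outside active marks was 1363, their median fold 3.13, median width 357 bp, and the shares with H2AK119ub and H3K27me3 50.6% and 24.1%. With a gap of at least 1 kb the fold was 2.40 and H3K27me3 35.4%. With the MYC summit outside active peaks the values were 2.48, 289 bp, 53.8% and 27.7%. With only active peaks of q under 1e-5 the width was 280 bp and H3K27me3 28.3%. The share near a gene end was 3.69% with windows of 500 bp, 13.1% with 2500 bp and 1.67% with starts only. The MYC summit was inside H2AK119ub at 50.0% and inside H3K27me3 at 28.0%. With marks merged across 3 kb these were 62.0% and 35.1%, and without the outer 5 Mb 47.1% and 27.7%. The causes were not tested. In each setting where a value was recomputed, without chromosome 20 included, the peaks outside active marks stayed on the same side of the other MYC peaks in fold, width, gene ends, peaks inside genes and both marks, but weighting by fold and width turned the order for peaks inside genes (44.3% and 46.3%). Other MYC peaks ranged between 17.3% and 32.5% for H2AK119ub and between 2.69% and 5.18% for H3K27me3. The E-box count at summits and its alternatives were not run. No library could be left out, since the lists do not resolve libraries. No paired analysis was possible because each target has 1 list and no test was made. Peaks near the q limit depend on depth, which is unknown.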

Other observations

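Chromosome X was outside the rule. Of its 667 MYC peaks, 21 shared no base with KDM2B, H3K4me3 or H3K27ac (3.15%, 95% Wilson interval 2.07 to 4.77), against 11.2% on chromosomes 1 to 22. Their median MYC fold was 2.59 and the highest 5.52. H2AK119ub overlapped 7 of the 21 and H3K27me3 3. The shares of the marks at the other MYC peaks of chromosome X were not computed.

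After the 3 densest bins of 1 Mb, the next was 62000001 to 63000000 of chromosome 20, with 36 such peaks among 134 MYC peaks, H2AK119ub at 34 and H3K27me3 at 14. The bin 105000001 to 106000000 of chromosome 14 held 34 among 90, with H2AK119ub at 29 and H3K27me3 at 15. The second Mb of chromosome 7 (1000001 to 2000000) also held 34, among 94, with H2AK119ub at all 34 and H3K27me3 at 21. These bins were chosen after their counts were seen, and the marks at their other MYC peaks were not counted.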
